A study of Mus musculus with 20 samples.

Results

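Hepatokines are proteins that hepatocytes secrete and that act on other organs or on the liver itself. Their genes followed here through RNA sequencing of whole mouse liver were Fgf21, Gdf15, Angptl4, Angptl6, Angptl8, Fgl1, Fetub, Ahsg and Lect2. They were picked by symbol and make up 9 of the 46095 gene symbols in the deposited count table and 9 of the 14440 genes that passed the low-count filter. The series asks what losing Pck1, which encodes the cytosolic phosphoenolpyruvate carboxykinase of gluconeogenesis, does to the liver in diet-induced steatohepatitis. It has 4 groups of 5 mice: wild type (WT) on chow, WT on a diet meant to cause non-alcoholic steatohepatitis (the NASH diet), and liver-specific Pck1 knockouts (KO, labelled Pck1-cKO) on either diet. Diets were given for 24 weeks and mice were 31 to 33 weeks old. The Cre driver, the composition of the NASH diet and the feeding state at collection were not stated in the labels.

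As background, FGF21 is released in fasting and in nutrient stress, under the control of PPAR-alpha and of ATF4, and signals through FGFR1 with the co-receptor beta-Klotho. GDF15 is a stress-induced member of the TGF-beta superfamily that acts through GFRAL and RET in the hindbrain. ANGPTL4 and ANGPTL8 act to inhibit lipoprotein lipase and so steer plasma triglyceride between tissues, with ANGPTL4 raised in fasting and ANGPTL8 raised by feeding and insulin. FGL1 is a ligand of the T cell receptor LAG3, fetuin-A (Ahsg) inhibits the insulin receptor, and LECT2 binds MET and TIE1.

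The 20 libraries held 9958935 to 20601955 counts, and their titles number the mice of each group, so a library is taken as 1 mouse and p-values measure the spread between these mice. Values are CPM, the reads of a gene scaled to a common library size after TMM normalisation, given as mean ± SD over 5 libraries. Pck1, the check of the genotype labels, was at 3573 ± 1139 CPM on chow and 2290 ± 511 on the NASH diet in WT, and 626 ± 175 and 445 ± 112 in KO in that order, and the KO libraries lay below the WT libraries on either diet. Which exons are deleted is not stated, so the origin of the remaining reads is not known. The labels give no sex. Read from Y-linked counts, all 5 WT chow mice were male, while WT NASH held 1 male (replicate 4), KO chow 3 (all but replicates 3 and 5) and KO NASH 4 (all but replicate 2). In 6 libraries expression fell with gene length relative to the other 14 (WT chow replicates 3, 4 and 5, WT NASH replicate 4, KO chow replicates 4 and 5). Values by sex and without these libraries are therefore given beside the results. Clock genes follow time of day and feeding. By the test described below, 2 of 12 were called higher in WT NASH than in WT chow, where 2.69% of all genes were. In KO NASH against WT NASH 2 were called higher and 1 lower, where 4.9% and 4.74% of all genes were. The part of the clock genes in the results was not tested. Of 6 hepatocyte markers 5 were in the table, and they summed to 48713 to 128945 CPM in every library.

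The genes lie apart in the genome, except Fetub and Ahsg, which neighbour each other on chromosome 16. Bases upstream of the RefSeq transcription start were at hand for 7 of the 9 genes (GRCm38.p6). The 250 bases before the start are printed 5′ to 3′ for the 3 genes that passed a test below (Fgf21, chr7:45615491-45615740, minus strand; Gdf15, chr8:70632457-70632706, minus strand; Lect2, chr13:56548539-56548788, minus strand) and for Angptl8 (chr9:21835260-21835509, plus strand), the only other one with the 8-letter element of Fgf21. Capitals mark matches to a searched motif.
Fgf21: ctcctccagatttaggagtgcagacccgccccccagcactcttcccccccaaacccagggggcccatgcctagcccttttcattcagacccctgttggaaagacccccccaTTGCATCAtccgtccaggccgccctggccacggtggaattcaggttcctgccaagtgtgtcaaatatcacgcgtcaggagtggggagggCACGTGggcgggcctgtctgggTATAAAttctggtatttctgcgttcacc
Gdf15: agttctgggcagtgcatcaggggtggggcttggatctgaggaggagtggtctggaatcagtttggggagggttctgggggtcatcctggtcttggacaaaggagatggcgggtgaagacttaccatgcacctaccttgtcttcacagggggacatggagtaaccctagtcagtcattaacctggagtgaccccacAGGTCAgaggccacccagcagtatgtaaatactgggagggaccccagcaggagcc
Angptl8: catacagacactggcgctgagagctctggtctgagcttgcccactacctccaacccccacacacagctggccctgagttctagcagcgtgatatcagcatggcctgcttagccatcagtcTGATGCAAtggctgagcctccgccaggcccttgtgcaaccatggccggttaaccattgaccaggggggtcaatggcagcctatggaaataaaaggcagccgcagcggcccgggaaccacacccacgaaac
Lect2: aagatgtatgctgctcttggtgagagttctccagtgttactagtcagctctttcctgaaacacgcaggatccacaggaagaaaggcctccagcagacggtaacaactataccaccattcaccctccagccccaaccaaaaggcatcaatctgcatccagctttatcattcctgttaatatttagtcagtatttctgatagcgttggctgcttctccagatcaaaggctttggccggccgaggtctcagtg
The motifs, chosen after the sequences were seen, were searched on both strands. They were TTGCATCA, a core of ATF4 and C/EBP composite elements, the E-box CACGTG, which reads the same on both strands, and the nuclear receptor half-site AGGTCA. Also searched were the core promoter element TATAAA, the box named for its letters CCAAT, and the element of AP-1 factors, TGACTCA. Fgf21 held TTGCATCA 139 bases, CACGTG 50 bases and TATAAA 28 bases before its start. Angptl8 held the reverse complement of the first, TGATGCAA, 130 bases before its start, and Gdf15 held AGGTCA 55 bases before. RefSeq gives Gdf15 a pair of starts, and the printed window belongs to the upstream one; the window before the other start, at base 70632095, held CACGTG 83 bases and ATTGG, the reverse complement of CCAAT, 6 bases before it. In Lect2 none of these letters occurred in the window. No printed match overlaps another. Among 32851 mouse promoter windows of the same length, 0.791% held TTGCATCA on either strand, 6.02% CACGTG, 14% AGGTCA, 12.4% TATAAA, 33.8% CCAAT and 4.46% TGACTCA. The matches describe the sequence and were not tested as sites.

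The 9 genes spanned a wide range of abundance. Per kilobase of exon, Ahsg was the most abundant, with group means of 2605 to 4263 CPM per kb, while Fgl1 at 129 to 424, Fetub at 149 to 221 and Lect2 at 40.7 to 327 came below it with ranges that overlapped. Angptl8 was at 8.60 to 22.5, Fgf21 at 3.40 to 13.0, Angptl6 at 5.52 to 6.61 and Gdf15 at 1.61 to 5.16. Angptl4, whose main sources in other settings include adipose tissue, was near the limit of detection at 0.0761 to 0.344 CPM per kb, with 1 to 53 reads in a library.

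Genes were called by edgeR's quasi-likelihood test at a Benjamini-Hochberg adjusted p under 0.05 over all 14440 genes. On the NASH diet, KO differed from WT in 2 of the 9 hepatokine genes, Fgf21 (higher) and Lect2 (lower), where 9.65% of all genes were called. KO chow differed from WT chow in 1 of 9, Lect2 (lower), against 5.53% of all genes. WT NASH differed from WT chow in 1 of 9, Gdf15 (higher), against 5.93% of all genes. For KO NASH against KO chow edgeR called 0 of 9 (3.29% of all genes), with 1 at an unadjusted p under 0.05, 1 called by DESeq2 and 2 by limma voom. For the interaction, which asks if the genotype difference depends on diet, edgeR called 0 of 9 (0.139% of all genes, 0.0554% higher and 0.0831% lower), with 1 at an unadjusted p under 0.05, 0 by DESeq2 and 1 by voom. At an unadjusted p under 0.05 there were 3 of the 9 for diet in WT, and 4 each for genotype on chow and on the NASH diet, beside 22.1%, 19.4% and 25.6% of all genes, while the same share was 22.2% for diet in KO and 8.25% for the interaction. Groups did not overlap for 1, 1 and 2 of the 9 in these comparisons, where 6.15%, 4.91% and 14.1% of all genes did not, and for 0 of the 9 in KO NASH against KO chow, where 8.5% did not. These comparisons share libraries: each group enters 2 of the 4 between groups. Counts of 1 or 2 among 9 lie near these shares, so what follows describes single genes and not the 9 as a set. Whole liver was sequenced, so fewer cells of a type and less RNA per cell cannot be told apart.

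**Figure D1:**
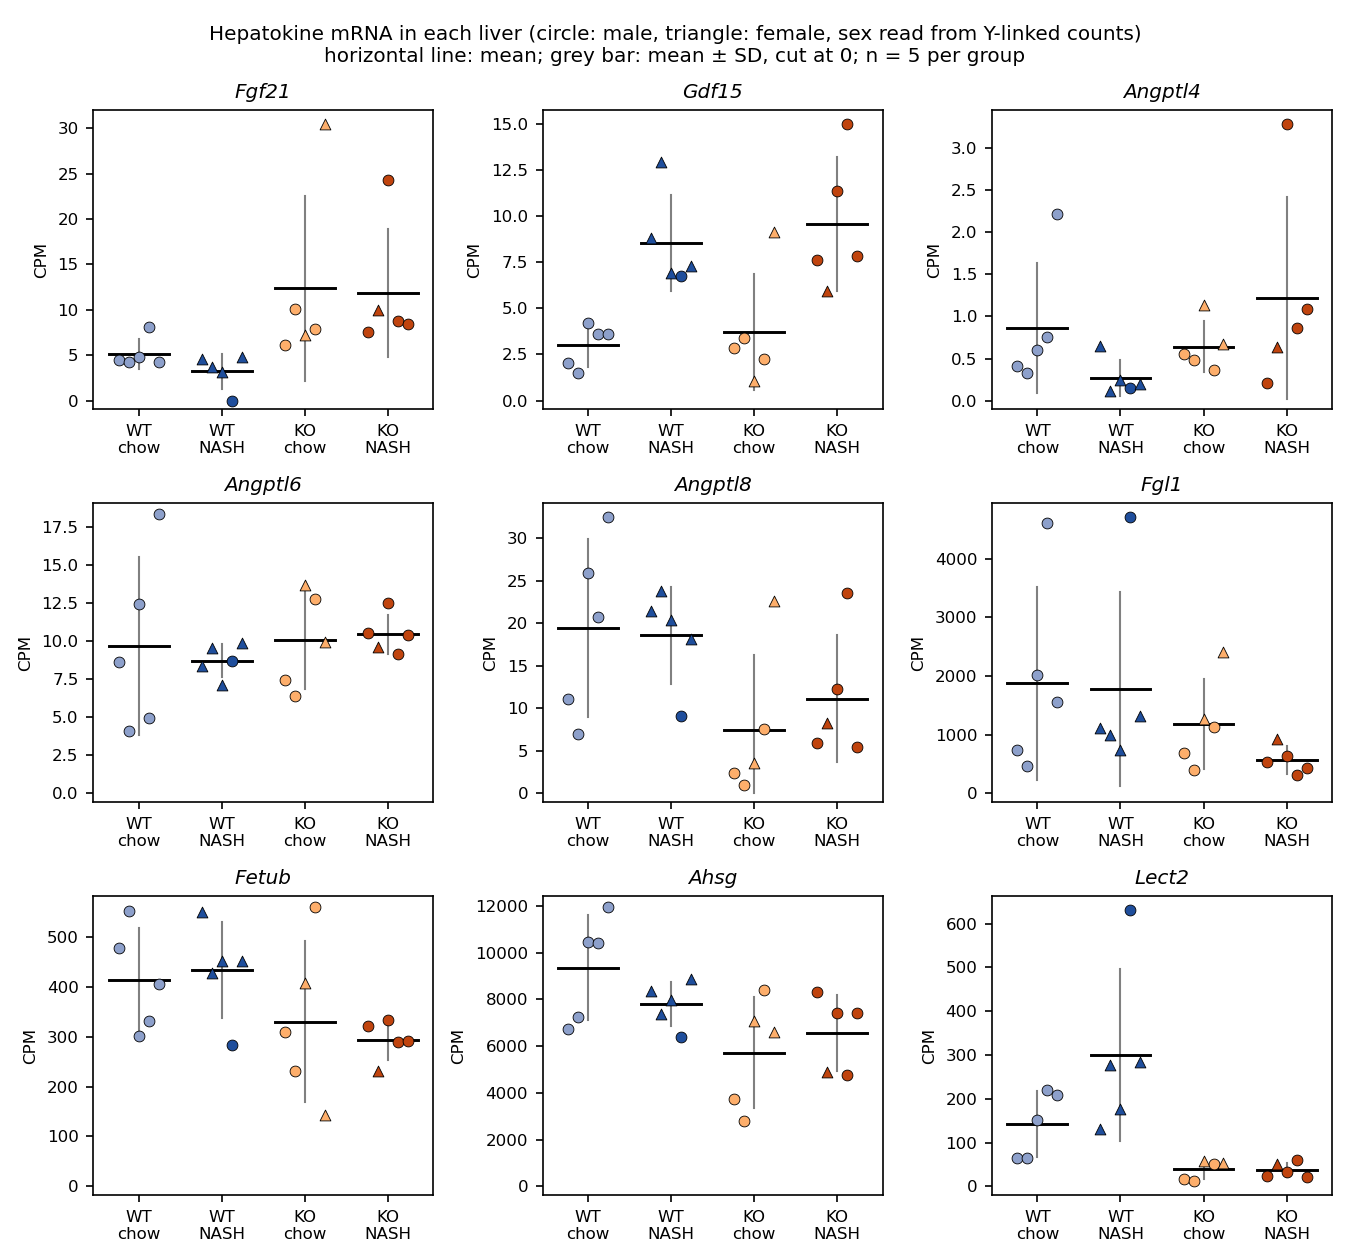
CPM of each of the 9 hepatokine genes (y axis, from 0) in each of the 20 livers by group (x axis), with circles for males and triangles for females, a line for the mean and a grey bar for mean ± SD (n = 5). Lect2 sits lower in all 10 KO livers than in any WT liver, Gdf15 sits higher in the 5 WT NASH than in the 5 WT chow livers, and Fgf21 sits higher in the 5 KO NASH than in the 5 WT NASH livers.

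**Figure D2:**
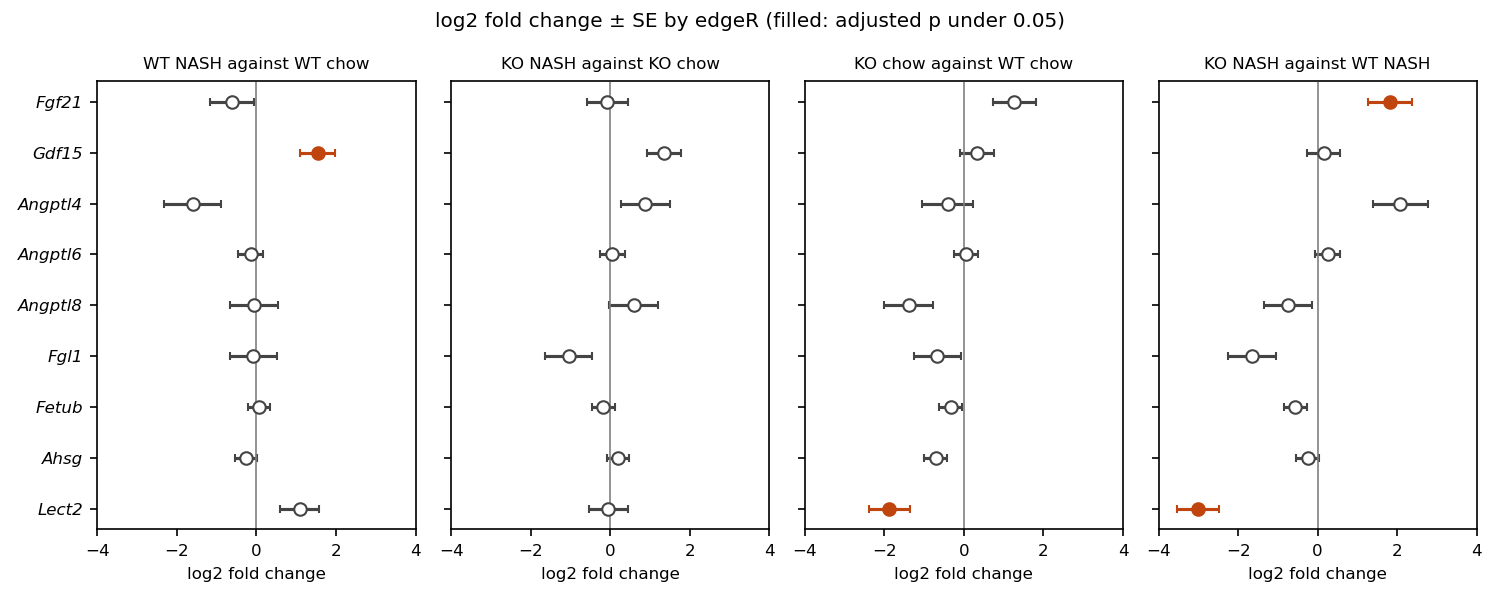
log2 fold change ± SE by edgeR for the 9 genes (rows) in the 4 pairwise comparisons (panels), with filled points for an adjusted p under 0.05. Filled are Gdf15 for WT NASH against WT chow (1.53), Lect2 for KO chow against WT chow (-1.87), and Fgf21 (1.82) and Lect2 (-3.00) for KO NASH against WT NASH.

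Fgf21 (chr7:45613886-45615490, minus strand, 3 exons) was more abundant in KO than in WT liver on the NASH diet. In WT NASH replicates 1 to 5 it was at 4.58, 3.74, 3.09, 0 and 4.78 CPM. In KO NASH replicates 1 to 5 it was at 7.50, 9.92, 24.3, 8.77 and 8.48 CPM. The groups did not overlap. Their means were 3.24 ± 1.93 and 11.8 ± 7.06 CPM, 3.65-fold apart, with a log2 difference of 1.82 (SE 0.553; adjusted p = 0.0423 by edgeR). WT NASH replicate 4 had 0 counts of 9958935, which allows up to 3 counts, or 0.441 CPM, for counting error alone.

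On chow, Fgf21 ran in the same direction without passing the test. WT chow replicates 1 to 5 were at 4.50, 4.22, 4.78, 8.07 and 4.23 CPM. KO chow replicates 1 to 5 were at 6.16, 10.1, 7.23, 7.84 and 30.4 CPM. The groups overlapped, with 2 of the 5 KO livers above the highest WT liver, and edgeR gave a log2 difference of 1.26 (SE 0.542, adjusted p = 0.196). The NASH diet itself gave -0.62 in WT (adjusted p = 0.528) and -0.07 in KO (adjusted p = 0.948), and the interaction was 0.55 (adjusted p = 0.932 by edgeR). The group means were 12.4 ± 10.2 CPM in KO chow and 5.16 ± 1.64 in WT chow. The KO chow mean rested on replicate 5: the medians were 7.84 CPM in KO chow and 8.77 in KO NASH. Without that liver the diet value in KO changed sign to 0.56 (adjusted p = 0.600 by edgeR) and the genotype value on chow was 0.64 (adjusted p = 0.409 by edgeR).

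The difference in Fgf21 between KO NASH and WT NASH lay close to the threshold. Its call was lost when any 1 of 10 libraries was left out (WT chow replicates 3 and 5, WT NASH replicates 2, 3 and 5, KO NASH replicates 1 to 5). Over all 20 such fits the log2 fold change was 1.38 to 1.98 and the edgeR adjusted p 0.0189 to 0.137, with the low value of 1.38 and the p of 0.137 without KO NASH replicate 3. Without the WT NASH library at 0 counts it was 1.54 and stayed called (adjusted p = 0.0463 by edgeR). Among females, the 4 WT NASH livers were at 3.09 to 4.78 CPM and the only KO NASH female at 9.92. Among males, the 4 KO NASH livers were at 7.50 to 24.3 CPM and the only WT NASH male was the library at 0, so no fold is given. With sex as a term the value was 2.79 (adjusted p = 0.0210 by edgeR), in a fit whose only WT NASH male is the library at 0. Without the 6 libraries set apart by gene length, which include that library, the value was 1.52 (adjusted p = 0.00673 by edgeR). The call was also lost with only the groups compared (1.79) and with KO NASH replicates 1 and 5, the most alike pair, summed (1.94). Over all alternatives other than males alone the adjusted p ran from 0.00531 to 0.137. At the results that follow, the word alternatives stands for the range of adjusted p over all of them, males alone included.

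Gdf15 (chr8:70629393-70632456, minus strand, 3 exons) was more abundant on the NASH diet. WT chow replicates 1 to 5 were at 2.01, 1.52, 4.18, 3.61 and 3.60 CPM, from 28 to 52 reads each. WT NASH replicates 1 to 5 were at 8.78, 12.9, 6.90, 6.77 and 7.30 CPM. All 5 livers on the NASH diet lay above all 5 on chow. The means of 2.98 ± 1.15 and 8.54 ± 2.59 CPM were 2.86-fold apart, with a log2 difference of 1.53 (SE 0.438; adjusted p = 0.0420 by edgeR).

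In KO liver the diet difference in Gdf15 did not pass the test. KO chow replicates 1 to 5 were at 2.83, 3.38, 1.04, 2.25 and 9.11 CPM. KO NASH replicates 1 to 5 were at 7.63, 5.94, 11.4, 14.997 and 7.84 CPM. One KO chow liver, replicate 5, lay among the KO NASH livers, and the other 4 lay below all of them. The means of 3.72 ± 3.14 and 9.56 ± 3.62 CPM gave a log2 difference of 1.36 (SE 0.426; adjusted p = 0.0799 by edgeR). Without KO chow replicate 5 the value was 1.98 and was called (adjusted p = 0.0140 by edgeR; alternatives 0.00281 to 0.188). Gdf15 did not pass the test for genotype, with log2 fold changes of 0.33 on chow (adjusted p = 0.717) and 0.16 on the NASH diet (adjusted p = 0.853 by edgeR), and the interaction was -0.17 (adjusted p = 0.974 by edgeR).

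Sex differed most between the WT groups, so the values of Gdf15 were split by it. The single WT NASH male was at 6.77 CPM and the 5 WT chow males at 1.52 to 4.18, a log2 difference of 1.20 (adjusted p = 0.302 by edgeR) in a fit that takes the spread of the lone WT NASH liver from the other groups. Among KO males, the 4 on the NASH diet were at 7.63 to 14.997 CPM and the 3 on chow at 2.25 to 3.38, with no overlap and a log2 difference of 1.88 (adjusted p = 0.0499 by edgeR). With sex as a term the WT value was 1.29 and lost its call (adjusted p = 0.317 by edgeR; alternatives 0.00487 to 0.317), as it did with sex and length slope together (1.81) and with KO NASH replicates 1 and 5 summed (1.51). It also lost it without any 1 of 13 libraries (every WT chow replicate, WT NASH replicates 1, 2, 3 and 5, KO NASH replicates 1, 2, 3 and 5), with log2 fold changes of 1.33 to 1.68 over the 20 such fits. Without the 6 libraries set apart by gene length it was 2.37 and was called (adjusted p = 0.0143 by edgeR).

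The lipase inhibitors of the angiopoietin-like family were not called by edgeR. Angptl4 (chr17:33773750-33781830) was at 0.863 ± 0.776 CPM on chow and 0.269 ± 0.215 on the NASH diet in WT, and 0.642 ± 0.299 and 1.22 ± 1.20 in KO in that order. WT NASH replicates 1 to 5 had 10, 2, 4, 1 and 3 reads, and KO NASH replicates 1 to 5 had 5, 15, 53, 18 and 24. Of the 5 KO NASH livers, 3 lay above the highest WT NASH liver and the groups overlapped. The log2 difference of 2.08 (SE 0.694) fell just short of the threshold in edgeR (adjusted p = 0.0588) and passed it in DESeq2 (2.12, adjusted p = 0.0222; alternatives 0.0222 to 0.262), in limma voom and with length slope as a term. Without KO NASH replicate 3 it was 1.31 (adjusted p = 0.222 by edgeR). The interaction of 2.49 (adjusted p = 0.417 by edgeR) was the only one of the 9 with an unadjusted p under 0.05.

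Angptl8 (chr9:21835510-21837347) lies on the opposite strand of Dock6 and shares no exonic base with it. It was at 19.4 ± 10.5 CPM on chow and 18.6 ± 5.68 on the NASH diet in WT, and 7.44 ± 8.82 and 11.1 ± 7.48 in KO in that order. WT chow replicates 1 to 5 were at 11.1, 6.99, 26.0, 20.7 and 32.5 CPM. KO chow replicates 1 to 5 were at 2.45, 1.01, 3.56, 7.55 and 22.6 CPM. The groups overlapped through KO chow replicates 4 and 5, with 3 of the 5 KO livers below the lowest WT liver. Both replicates are among the 6 libraries set apart by gene length. Angptl8 was at 7.55 to 32.5 CPM in those 6 and at 1.01 to 23.8 in the other 14. Among the 14, the 2 WT chow livers were at 6.99 and 11.1 CPM and the 3 KO chow livers at 1.01 to 3.56. The 4 WT NASH livers among them were at 18.1 to 23.8 CPM and the 5 KO NASH livers at 5.49 to 23.6. The fit without the 6 did not call the difference on chow. For this comparison edgeR gave -1.39 (SE 0.621, adjusted p = 0.217). Without KO chow replicate 5 the value was -2.41 and was called (adjusted p = 0.0140 by edgeR, alternatives 0.000320 to 0.416). It was also called by limma voom (-3.32, adjusted p = 0.000320) and with sex and length slope as terms (-1.88, adjusted p = 0.0141 by edgeR). On the NASH diet the value was -0.75 (adjusted p = 0.477 by edgeR) and changed sign to 0.10 with sex as a term, while limma voom called it lower (-1.09, adjusted p = 0.0224). Of the 5 KO NASH livers, 3 lay below the lowest WT NASH liver, which was the only male of that group. For diet, Angptl8 gave -0.06 in WT (adjusted p = 0.970) and 0.59 in KO (adjusted p = 0.574, both by edgeR). The diet value in KO was called higher in 3 of the 12 other analyses (alternatives 0.00990 to 0.934). Its interaction was 0.65 (adjusted p = 0.925 by edgeR) and was called by limma voom alone (adjusted p = 0.0302).

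Angptl6 (chr9:20873808-20879727), an angiopoietin-related growth factor, differed little by group, at 9.70 ± 5.86 CPM on chow and 8.73 ± 1.08 on the NASH diet in WT, and 10.1 ± 3.20 and 10.5 ± 1.30 in KO in that order. Its log2 fold changes lay between -0.15 and 0.26, and the smallest edgeR adjusted p was 0.646 for KO NASH against WT NASH. Angptl6 shares 265 exonic bases with A230050P20Rik on the opposite strand. Whether counting used the strand is not given in the sources used here. Reads within these shared bases, 265 of the 1582 exonic bases of Angptl6, therefore cannot be told apart between the genes.

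Lect2 (chr13:56542464-56548502, minus strand, 5 exons), a hepatocyte chemokine that is raised in human fatty liver disease, was less abundant in KO liver on both diets. WT chow replicates 1 to 5 were at 64.3, 63.8, 150.4, 220.3 and 208 CPM. KO chow replicates 1 to 5 were at 17.6, 12.3, 57.5, 51.5 and 54.1 CPM. The groups did not overlap, and the means of 141 ± 75.4 and 38.6 ± 21.8 CPM were 3.66-fold apart (log2 fold change -1.87, SE 0.507; adjusted p = 0.0354 by edgeR).

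On the NASH diet Lect2 was again lower in KO. WT NASH replicates 1 to 5 were at 131, 278, 176, 632 and 284 CPM. KO NASH replicates 1 to 5 were at 24.3, 50.1, 33.3, 59.1 and 20.1 CPM. Every KO liver lay below every WT liver, and the means of 300.1 ± 197 and 37.4 ± 16.7 CPM were 8.03-fold apart (log2 fold change -3.00, SE 0.529; adjusted p = 0.00162 by edgeR). The diet difference in WT, 1.09 (SE 0.496), did not pass the test (adjusted p = 0.202 by edgeR; alternatives 0.00256 to 0.430). It was called with length slope as a term (1.61, adjusted p = 0.00256 by edgeR) and with sex and length slope as terms (1.31, adjusted p = 0.0251 by edgeR). In KO the value was -0.04 (adjusted p = 0.963 by edgeR). The interaction of -1.13 (SE 0.697) did not pass the test either (adjusted p = 0.732 by edgeR), so the genotype difference is not shown to depend on the diet.

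On the NASH diet Lect2 was called in each of the 12 other analyses and in each of the 20 fits without 1 library, with log2 fold changes of -4.21 to -2.12 and adjusted p of 1.56e-07 to 0.00746. The end at -4.21 is that of males alone, whose 1 WT NASH liver takes its spread from the other groups, and the fits without 1 library gave -3.23 to -2.54. Within males, the 4 KO NASH livers were at 20.1 to 59.1 CPM and the only WT NASH male at 632. Within females, the only KO NASH liver was at 50.1 CPM and the 4 WT NASH livers at 131 to 284. On chow, where all WT livers were male, the 3 KO males were at 12.3 to 51.5 CPM and the 2 KO females at 54.1 to 57.5. The call on chow was lost without WT chow replicates 3, 4 or 5 or KO chow replicates 1 or 2, with log2 fold changes of -2.06 to -1.65 over the 20 fits. It was also lost with sex as a term (-1.90) and with only the groups compared (-1.86), and kept in males alone (-2.38). Without the 6 libraries set apart by gene length, which include 3 of the 5 WT chow livers, it was -1.14 and was not called (adjusted p = 0.257 by edgeR; alternatives 0.000320 to 0.257). In the 2 WT chow livers that remain Lect2 was at 63.8 and 64.3 CPM, above the 12.3 to 57.5 CPM of the 3 KO chow livers that remain.

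**Figure D3:**
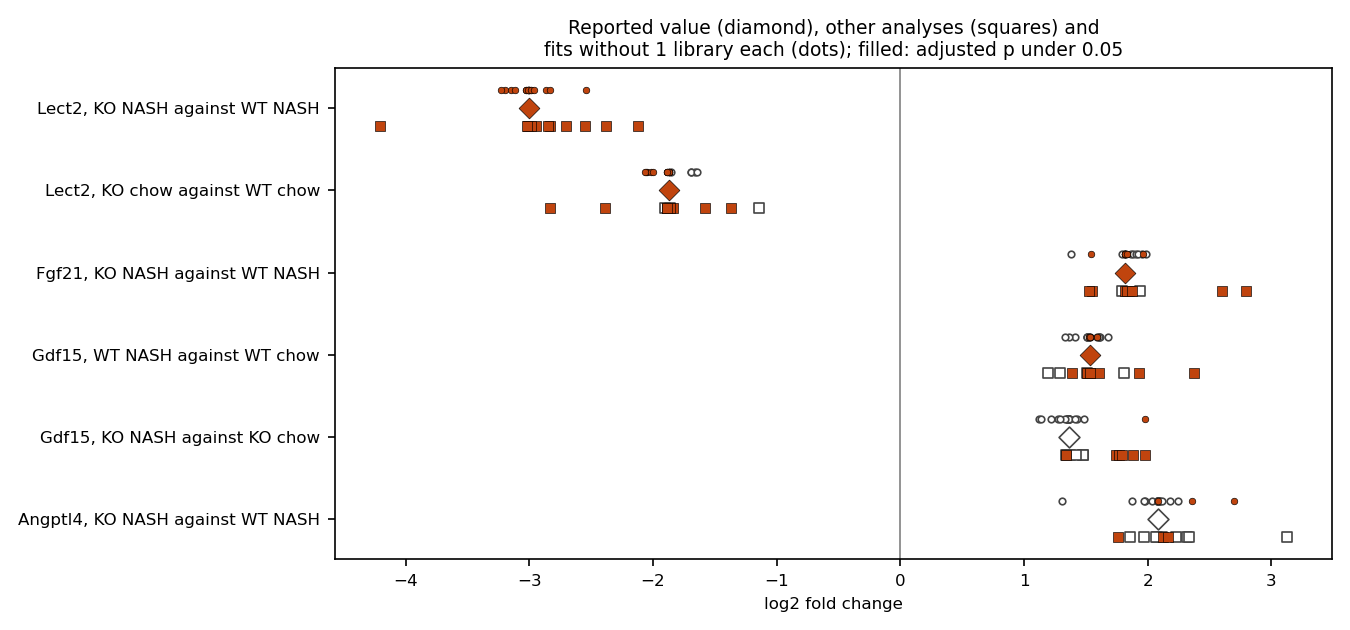
log2 fold change (x axis) of 6 results on hepatokine genes (rows) as reported (diamonds), in other analyses (squares) and in fits without 1 library each (dots), filled where the adjusted p was under 0.05. Lect2 on the NASH diet is filled throughout, from -4.21 to -2.12, while Fgf21 and Gdf15 have open symbols on the same side of 0, and the fit of males alone is left out for Fgf21 because its only WT NASH library was at 0 counts.

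Fgl1 and the fetuins, secreted hepatocyte proteins of higher abundance, were not called by edgeR, but by some of the alternatives. Fgl1 (chr8:41191434-41215156) was at 1878 ± 1647 CPM on chow and 1779 ± 1656 on the NASH diet in WT, and 1180.3 ± 769.95 and 571 ± 233 in KO in that order. WT NASH replicates 1 to 5 were at 1118, 1002, 737, 4717 and 1324 CPM, and the 5 KO NASH livers at 311 to 929. Of the 5 KO NASH livers, 4 lay below the lowest WT NASH liver, and the log2 fold change was -1.64 (SE 0.604; adjusted p = 0.0902 by edgeR). Fgl1 moved with the libraries set apart by gene length: it was at 1131 to 4717 CPM in those 6 and at 311 to 1324 in the other 14. Among the 14, the 4 WT NASH livers were at 737 to 1324 CPM and the 5 KO NASH livers at 311 to 929. Without WT NASH replicate 4 the difference was -0.87 (adjusted p = 0.400 by edgeR; alternatives 0.0159 to 0.400). It was called by DESeq2 (-1.65, adjusted p = 0.0313), by limma voom (-1.02, adjusted p = 0.0403) and in males alone (-3.29, adjusted p = 0.0159 by edgeR), where WT NASH is replicate 4. For KO chow against WT chow limma voom called Fgl1 lower (-1.40, adjusted p = 0.0239), and without the 6 libraries set apart by gene length the value was 0.37 (adjusted p = 0.691 by edgeR).

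Fetub (chr16:22918334-22939778), which encodes fetuin-B, was at 414 ± 103, 433 ± 96.2, 330.0 ± 162 and 293 ± 39.2 CPM in WT chow, WT NASH, KO chow and KO NASH. Its log2 fold change for KO NASH against WT NASH was -0.56 (SE 0.288; adjusted p = 0.227 by edgeR; alternatives 0.00878 to 0.869). It was called without the 6 libraries set apart by gene length (-0.70, adjusted p = 0.00878 by edgeR) and by limma voom (-0.64, adjusted p = 0.0106), and was 0.13 in males alone. The 4 WT NASH females were at 428 to 550.0 CPM and the KO NASH female at 231, while the WT NASH male, at 283, lay below the KO NASH males (289 to 333). Ahsg (chr16:22891277-22899449) was at 9366 ± 2264, 7798 ± 956, 5723 ± 2371 and 6556 ± 1629 CPM in the same order. For KO chow against WT chow Ahsg gave -0.71 (SE 0.288; adjusted p = 0.168 by edgeR), with 3 of the 5 KO livers below the lowest WT liver, and limma voom called it (-1.30, adjusted p = 0.00169). For KO NASH against WT NASH Ahsg gave -0.25 (adjusted p = 0.629 by edgeR). Ahsg shares 62 exonic bases with the antisense gene Gm30505.

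Receptors and partners of these proteins were listed as 19 genes, of which 17 were tested. The only call for WT NASH against WT chow, where 2.69% of all genes rose, was Fgfr4, the main FGF receptor of hepatocytes, at 29.7 ± 10.5 against 12.1 ± 6.75 CPM (log2 fold change 1.29, SE 0.347; adjusted p = 0.0334 by edgeR). This call was lost with sex as a term, with sex and length slope as terms, in males alone, with only the groups compared and without the 6 libraries set apart by gene length, with adjusted p of up to 0.889 over the alternatives. It was also lost without any 1 of 6 WT livers (replicates 3, 4 and 5 on chow, replicates 1, 2 and 5 on the NASH diet), with 1.16 to 1.63 over the 20 fits without 1 library. For KO NASH against WT NASH 2 of the 17 rose and 1 fell, where 4.9% of all genes rose and 4.74% fell. The 2 that rose were Lpl, lipoprotein lipase, with 218 ± 245 against 36.3 ± 10.5 CPM (2.59, edgeR adjusted p = 0.0176), and Tie1, which LECT2 binds, at 16.3 ± 1.77 against 8.68 ± 2.47 CPM (0.90, edgeR adjusted p = 0.0184). With sex as a term 0 of the 17 were called in this comparison. The call of Lpl was lost in 6 of the 12 other analyses and without KO NASH replicates 1 or 5 (1.99 to 2.87 over the 20 fits), and that of Tie1 without WT NASH replicate 2. Of 6 endothelial markers 2 were also called higher in KO NASH than in WT NASH, and the 6 summed to 202 to 324 CPM in KO NASH and 162 to 248 in WT NASH; their part in the value of Tie1 was not tested. Klb, which encodes beta-Klotho, had group means of 30.5 to 41.3 CPM, Met of 91.3 to 134 CPM and Insr of 187 to 212 CPM, none of them called. Gfral had 0 counts in all 20 libraries and Ret at most 2.

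Of 5 markers of adipocytes, another source of Angptl4 and Lpl, only Cfd passed the low-count filter. Cfd was called higher in KO NASH than in WT NASH, where 4.9% of all genes were. The 5 genes summed to 0 to 1.32 CPM on chow and 0.452 to 0.969 on the NASH diet in WT, and 0.248 to 5.15 and 3.59 to 54.5 in KO in that order. This was nearly all Cfd, at 3.59 to 54.4 CPM in KO NASH and at most 0.0646 in WT NASH. Lep had 0 counts in every library, Plin1 was at most 0.128 CPM and Adipoq at most 0.256 CPM in KO NASH, below their highest values in WT NASH (0.441 and 0.545). The part of Cfd in the values of Angptl4 and Lpl was not tested.

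The programmes known to control these hormones were read from lists of their target genes. PPAR-alpha, the fatty acid sensor of fasting, drives Fgf21 and Angptl4. Of 18 PPAR-alpha targets, 8 fell in WT NASH against WT chow, where 3.24% of all genes did (list median -0.95, all genes 0.01), among them Cyp4a14, a fatty acid hydroxylase, by 3.47 (adjusted p = 0.0111 by edgeR). The call of Cyp4a14 was lost with sex as a term, with sex and length slope as terms and with only the groups compared (adjusted p of up to 0.0797 by edgeR). In KO against WT, 4 of the 18 rose on chow, where 3.03% of all genes did, and 5 on the NASH diet, where 4.9% did (list medians 0.69 and 1.08). Of 8 genes listed for the fasting response, which include Fgf21 and Angptl4 themselves, 1 was called higher in each of these comparisons. On chow, where 3.03% of all genes rose, it was Pdk4, which is also among the 18. On the NASH diet, where 4.9% did, it was Fgf21 itself. The 8 summed to 1258 to 2166 CPM in WT chow and 1110.3 to 2975 in KO chow, where 4 of the 5 livers lay above every WT chow liver, and to 1016 to 1837 in WT NASH and 1292 to 2390 in KO NASH; their part in the results was not tested. The largest rises were those of Pdk4, which restrains pyruvate oxidation, on chow (3.76, SE 0.700; adjusted p = 0.00400 by edgeR) and of Acot2, a mitochondrial acyl-CoA thioesterase, on the NASH diet (3.44, SE 0.699; adjusted p = 0.00486 by edgeR). Ehhadh, of peroxisomal beta-oxidation, was at 2077 ± 1781, 351 ± 99.9, 11307 ± 4604 and 2178 ± 872 CPM in WT chow, WT NASH, KO chow and KO NASH. Of the 18, 2 fell in KO NASH against KO chow, where 1.52% of all genes did, and for Ehhadh this fall was 2.38 (adjusted p = 0.0141 by edgeR). With sex as a term the calls became 3 lower, 3 higher and 4 higher in the first 3 comparisons, and without the 6 libraries set apart by gene length 3 lower, 7 higher and 11 higher. Leaving out 1 library moved the 4 on chow to 2 (any WT chow replicate, KO chow replicates 1 or 2), and the 5 on the NASH diet to 3 (WT NASH replicate 2) or 9 (KO chow replicate 5). It moved the 2 in KO NASH against KO chow to 1 (KO NASH replicates 1, 2, 4 or 5, KO chow replicates 1, 4 or 5), 5 (KO chow replicate 3) or 6 (WT NASH replicate 4). In KO against WT, Fgf21 ran in the direction of the list median on either diet, passing the test on the NASH diet alone. Angptl4 gave -0.41 on chow, the other direction, and 2.08 on the NASH diet, neither called by edgeR. For diet in WT Fgf21 gave -0.62 and Angptl4 -1.61, neither called. In KO NASH against KO chow the list median was -0.90, while Fgf21 gave -0.07 and Angptl4 0.89, neither called. The part of PPAR-alpha in these values was not tested.

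The integrated stress response, through ATF4, drives Fgf21 and Gdf15. Of its 13 tested genes 1 rose in WT NASH against WT chow, Chac1, which degrades glutathione, at 6.89 ± 3.42 against 1.70 ± 0.895 CPM (2.02, edgeR adjusted p = 0.00618), where 2.69% of all genes rose. In KO chow against WT chow 2 of the 13 rose, where 3.03% of all genes did: Psat1, of serine synthesis (3.37, edgeR adjusted p = 0.00453), and Nupr1 (2.64, edgeR adjusted p = 0.0413). Psat1 was low, at 3.40 ± 2.32 CPM in KO chow against 0.317 ± 0.117 in WT chow. Its groups overlapped, with KO chow livers from 0.396 CPM and WT chow livers up to 0.474. In KO NASH against WT NASH, where 4.9% of all genes rose and 4.74% fell, 3 rose, the transcription factor Atf3 (3.17, edgeR adjusted p = 0.00914), Trib3 (1.72, edgeR adjusted p = 0.0335) and Nupr1 (2.41, edgeR adjusted p = 0.0398), and Chac1 fell by 2.29 (adjusted p = 0.00165 by edgeR). Gdf15 was not called in either of these KO comparisons. With sex as a term none of the 3 rises on the NASH diet was called, and the fall of Chac1 stayed the only call. Without the 6 libraries set apart by gene length none of the 13 was called on chow. The 2 rises on chow became 1 without any WT chow replicate, replicates 1 or 2 of KO chow, replicates 2 or 5 of WT NASH, and KO NASH replicate 3. The 3 rises on the NASH diet became 1 without replicates 1, 2 or 5 of WT NASH and without replicates 1 or 5 of KO NASH, and 5 without KO NASH replicate 4. The calls of Chac1 held in all 32 alternatives, with 1.70 to 2.84 for diet in WT and -3.46 to -1.999 for genotype on the NASH diet.

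Insulin and SREBP-1c, which raise Angptl8, also control the lipogenic genes. Of 14 such genes 7 rose in WT NASH against WT chow, where 2.69% of all genes did (list median 1.51), among them Fasn, fatty acid synthase, at 289 ± 122 against 28.1 ± 17.7 CPM (3.36, edgeR adjusted p = 0.000641). In KO NASH against WT NASH 9 of the 14 fell (list median -1.26), where 4.74% of all genes did, among them Thrsp, an activator of lipogenesis, at 6.11 ± 6.82 against 91.1 ± 36.3 CPM (-3.90, edgeR adjusted p = 0.00251). On chow, 3 fell and 1 rose in KO, where 2.49% of all genes fell and 3.03% rose, and Thrsp was at 5.59 ± 2.49 against 30.9 ± 35.8 CPM (-2.47, edgeR adjusted p = 0.0410). The interaction called 1 of the 14, Acly, ATP citrate lyase (-1.39, edgeR adjusted p = 0.0451). With sex as a term the rises in WT became 3 and the falls in KO NASH 4, and among males alone, with 1 WT NASH liver, both counts were 0. Without the 6 libraries set apart by gene length 6 rose in WT and 10 fell in KO NASH, while on chow none fell. The 3 falls on chow became 1 without KO chow replicates 1, 2 or 4. The call of Acly was lost without the low-count filter, with the replicate block, with sex as a term, in males alone and with KO NASH replicates 1 and 5 summed (adjusted p of up to 0.330 by edgeR). It held in 5 of the 20 fits without 1 library, those without WT NASH replicate 4, KO chow replicates 2, 4 or 5 or KO NASH replicate 2 (-1.48 to -1.23 over the 20).

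**Figure D4:**
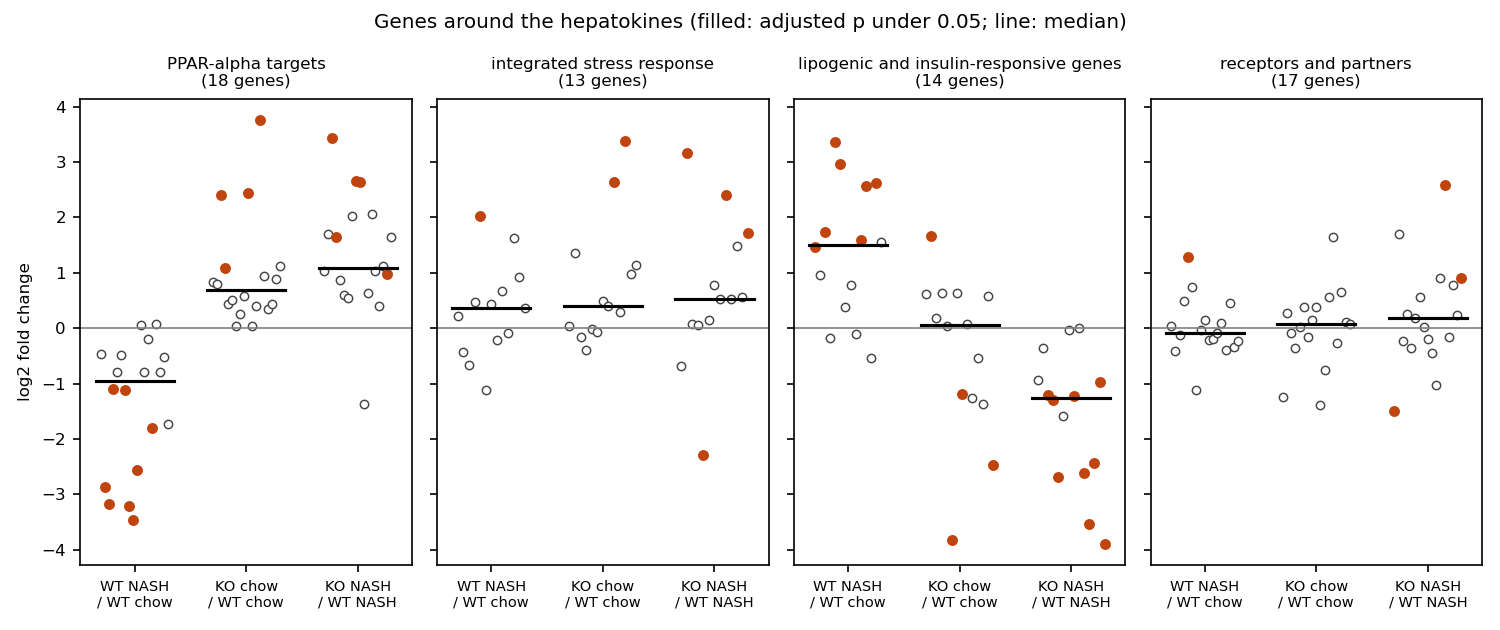
log2 fold change (y axis) of every tested gene of 4 lists (panels) in 3 comparisons (x axis), with filled points for an adjusted p under 0.05 and a line for the list median. The medians of the PPAR-alpha targets are -0.95, 0.69 and 1.08 from left to right, and those of the lipogenic genes are 1.51, 0.06 and -1.26.

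Of 12 other tested genes of secreted liver proteins 1 rose and 2 fell in WT NASH against WT chow, where 2.69% of all genes rose and 3.24% fell. In KO NASH against WT NASH 1 rose and 2 fell, where 4.9% rose and 4.74% fell. Enho, which encodes adropin, rose in WT NASH, at 48.0 ± 40.3 against 5.77 ± 2.71 CPM in WT chow (3.06, SE 0.625; adjusted p = 0.00679 by edgeR). In KO NASH it was at 3.04 ± 3.40 CPM, a log2 difference of -3.96 against WT NASH (SE 0.649; adjusted p = 0.000895 by edgeR), and both calls held in each of the 12 other analyses and the 20 fits without 1 library. Inhbe, a subunit of activin E, moved the other way, falling in WT NASH to 30.0 ± 11.8 from 109.9 ± 25.0 CPM and lying at 124 ± 77.3 CPM in KO NASH (log2 fold changes -1.87 and 2.05, edgeR adjusted p = 0.0114 and 0.00513). Rbp4, the retinol carrier, fell in WT NASH (-1.04, edgeR adjusted p = 0.0422), and Igf1 was lower in KO NASH than in WT NASH (-1.21, edgeR adjusted p = 0.00481). The diet call of Inhbe was lost with sex as a term, in males alone and without the 6 libraries set apart by gene length (adjusted p of up to 0.104 by edgeR). That of Rbp4 was lost without the low-count filter, with sex as a term, with sex and length slope as terms, in males alone, with only the groups compared, without the 6 libraries set apart by gene length and without any 1 of 9 livers (replicates 3 and 5 of WT chow, all of WT NASH but replicate 4, replicates 1, 4 and 5 of KO NASH) (-1.25 to -0.59 over all alternatives). These pairs of comparisons share the WT NASH libraries.

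Which genes followed each hepatokine across the 20 libraries is given as a description, since all points share the 4 groups, the sex split and the libraries set apart by gene length. By Pearson's r of log2 CPM among genes averaging 5 CPM or more, Fgf21 was followed most closely by Mfsd2a (r = 0.94), a lysophospholipid transporter, and Slc16a5 (0.92). Lect2 was followed by Gm40770 (0.99), a predicted gene, and Akr1c6 (0.97), whose family members are similar enough that counting may split their reads. Akr1c6 had group means of 1601 CPM on chow and 2879 on the NASH diet in WT, and 242 and 307 in KO in that order. Gdf15 was followed less closely, by the collagen chaperone Serpinh1 (0.75) and the cell cycle inhibitor Cdkn1a (0.74), whose group means were 2.03, 30.1, 4.40 and 20.9 CPM in the order WT chow, WT NASH, KO chow and KO NASH. Fgl1 was followed by the plasma proteins Hpx (0.95) and Cpb2 (0.93), and Angptl8 by Proz (0.90) and Mtch1 (0.90). Ahsg was followed by Proz (0.83) and Serpinf2 (0.82), Fetub by Serpinf1 (0.79) and Ndrg2 (0.79), Angptl4 by Paqr7 (0.70), and Angptl6 by Gdf2 (0.71) and Ndufs8 (0.71). Among the 9 themselves, r was 0.70 between Angptl8 and Lect2, 0.70 between Angptl8 and Ahsg, 0.69 between Fgl1 and Lect2, -0.64 between Fgf21 and Lect2 and 0.05 between Fgf21 and Gdf15.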

How the data were processed

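Livers of 20 mice, 5 in each of 4 groups, were profiled by RNA sequencing of total RNA. The authors deposited whole-number read counts per gene for each library, aligned to GRCm38 with HISAT2 2.0.4 per the submitters' processing notes; the sources used here do not give the counting program or its strand setting. Columns headed HFD were matched to the NASH diet groups by genotype and mouse number. Total counts ran from 9958935 to 20601955.

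Counts were fitted in R 4.3.3 with edgeR 4.0.16 (glmQLFit and glmQLFTest, TMM scaling, filterByExpr with a minimum count of 10, 1 coefficient per group over all 20 libraries), which kept 14440 of 46095 genes. p-values were adjusted by Benjamini-Hochberg over all of them. The common biological coefficient of variation was 39.0%. The fit was tested on simulated data. Alternatives were DESeq2 1.42.0 and limma 3.58.1 (voom with quality weights), RLE scaling, no filter, a replicate block, sex, length slope or both as terms, males alone, only the groups compared, KO NASH replicates 1 and 5 summed because they were the most alike pair, and each library left out. Leaving out the 6 libraries of negative length slope was added after seeing the data. The length slope is the trend of a library's log2 expression with gene length. Mice with 100 or more counts over 4 Y-linked genes were read as male.

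The hepatokine genes and all lists were chosen with earlier results of these data known. From each list the called gene of largest change in each comparison was named, if its mean was at least 1 CPM; other list genes were named after their values were seen. Some genes that these rules select are not reported here. Promoter bases are from RefSeq (GRCm38.p6), and gene positions from GENCODE on GRCm38.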

Additional observations from a re-analysis of the deposited data

Results flagged for a closer look

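In 8 of 36 sets of 5 libraries (9 genes in 4 groups) 1 liver stood apart from the others by more than Dixon's critical value of 0.710. In each of the 8 that liver was the highest of its set. The critical value assumes normally spread values, while CPM were used without a log, and the sets share the same 20 libraries. The share over all genes was not counted, so 8 of 36 is not shown to be unusual. Fgf21 accounted for 3 of the 8 sets. WT chow replicate 4 was at 8.07 CPM against 4.22 to 4.78 in the other WT chow livers. KO chow replicate 5 was at 30.4 CPM against 6.16 to 10.1, and KO NASH replicate 3 was at 24.3 CPM against 7.50 to 9.92. The same KO chow liver was high in Gdf15, at 9.11 CPM against 1.04 to 3.38.

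Angptl4 stood apart in WT chow replicate 5 (2.22 CPM against 0.325 to 0.760), in WT NASH replicate 1 (0.646 against 0.119 to 0.242) and in KO NASH replicate 3 (3.29 against 0.213 to 1.09). The last is also the liver with the highest Fgf21 of its group. Fgl1 stood apart in WT NASH replicate 4, at 4717 CPM against 737 to 1324 in the other WT NASH livers. That library is the only male of its group, has the fewest counts of all 20 and is 1 of the 6 with a negative length slope.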

How the results depend on the processing

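The numbers of genes called moved with the analysis and the cause was not tested. For WT NASH against WT chow (857 genes) they were 1496 by DESeq2, 5866 by voom, 161 with sex as a term, 1775 with length slope, 99 in males alone and 426 with only the groups compared. For KO chow against WT chow (798) they were 1389 by DESeq2, 5836 by voom, 1656 with length slope, 1996 with sex and length slope and 332 with only the groups compared. For KO NASH against WT NASH (1393) they were 2196 by DESeq2, 3434 by voom, 625 with sex, 2387 with length slope, 2096 in males alone, 2119 with only the groups compared, 756 with KO NASH replicates 1 and 5 summed and 3076 without the 6 libraries of negative length slope. For KO NASH against KO chow (475) they were 253 without the low-count filter, 1303 by DESeq2, 1835 by voom, 920 with length slope, 1353 with both terms, 67 in males alone, 315 with only the groups compared, 183 with the 2 summed and 1156 without the 6 libraries. For the interaction (20) they were 189 by DESeq2, 1949 by voom, 4 with the replicate block, 4 with sex, 190 with length slope, 69 with both terms, 5 in males alone, 4 with the 2 summed and 80 without the 6 libraries. Leaving out 1 library gave 409 to 1718, 348 to 1220, 702 to 1704, 142 to 784 and 4 to 145 genes in the same order.

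Of the 9 hepatokine genes, diet in WT called 0 with sex, 2 with length slope and 0 with the 2 summed; genotype on chow called 4 by voom, 0 with sex, 2 with both terms, 0 with only the groups compared and 0 without the 6 libraries. Genotype on the NASH diet called 4 by DESeq2, 6 by voom, 1 with only the groups compared and 1 with the 2 summed. Diet in KO called 1 by DESeq2, 2 by voom, 1 with length slope, 2 with both terms, 1 in males alone and 2 without the 6 libraries, and the interaction called 1 by voom. Without 1 library the counts were 0 to 1, 0 to 2, 1 to 3 and 0 to 1 for the 4 pairwise comparisons.

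No called value changed sign. Among values not called, these log2 differences did. For diet in WT they were Angptl6 with length slope (0.12) and without the 6 libraries (0.48), Angptl8 with the replicate block (0.31), length slope (0.91) and without the 6 libraries (1.24), Fgl1 with length slope (0.54), both terms (0.34), in males alone (1.33) and without the 6 libraries (0.81), Fetub with length slope (-0.039), in males alone (-0.55) and without the 6 libraries (-0.11), and Ahsg without the 6 libraries (0.25). For genotype on chow they were Gdf15 by voom (-0.33) and in males alone (-0.057), Angptl6 by voom (-0.33), with sex (-0.017) and in males alone (-0.13), and, without the 6 libraries, Angptl4 (0.95) and Fgl1 (0.37). For genotype on the NASH diet they were Angptl8 with sex (0.10), both terms (0.41) and in males alone (0.38), Fetub in males alone (0.13), and Ahsg with both terms (0.077) and in males alone (0.12). For diet in KO they were Fgf21 by voom (0.42), with the replicate block (0.046), sex (0.39), length slope (0.21), both terms (0.44), in males alone (0.60), with the 2 summed (0.032) and without the 6 libraries (0.59), and Lect2 by voom (0.71), with the replicate block (0.10), length slope (0.60), both terms (0.77), in males alone (0.34), with the 2 summed (0.087) and without the 6 libraries (0.38). For the interaction they were Gdf15 by voom (0.36), with sex (0.19) and in males alone (0.68), Angptl6 without the 6 libraries (-0.28), Fgl1 by voom (0.38), Fetub in males alone (0.30) and without the 6 libraries (0.0081), and Lect2 by voom (0.13).

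Leaving out 1 library turned the sign of some uncalled values, with ranges for diet in WT of -0.35 to 0.22 for Angptl6, -0.27 to 0.20 for Angptl8, -0.87 to 0.56 for Fgl1 and -0.038 to 0.19 for Fetub. For genotype they were -0.28 to 0.57 for Gdf15, -0.72 to 0.34 for Angptl4 and -0.15 to 0.43 for Angptl6 on chow, and -0.065 to 0.36 for Gdf15 on the NASH diet. For diet in KO they were -0.51 to 0.56 for Fgf21, -0.070 to 0.20 for Angptl6, -0.39 to 0.10 for Fetub and -0.27 to 0.14 for Lect2, and for the interaction -0.41 to 0.45 for Gdf15, -0.17 to 0.40 for Angptl6 and -0.45 to 0.042 for Fetub. Mice share numbers across groups, but only 13 of 30 same-numbered pairs correlated above 0.1 (r -0.41 to 0.52), so the numbers were not taken to pair the mice. With the replicate block the calls of Fgf21 (1.83), Gdf15 (1.61) and Lect2 (-1.86 on chow) were kept. Sex and length slope are unevenly spread over the groups, and WT NASH holds 1 male, so a fit with sex rests on few mice; sex and diet in WT cannot be told apart beyond that liver. Angptl4, with as little as 1 read, is limited by depth.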
